A study of Mus musculus with 18 samples.

Results

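The extracellular matrix genes described here code for adhesive glycoproteins, elastic fibre and basement membrane proteins, small proteoglycans, lysyl oxidases, matrix metalloproteinases and their inhibitors, the collagen chaperone Serpinh1, and integrins, the receptors that bind this matrix. The members were 37 mouse genes chosen by name. No measured value entered the rule, but earlier results of these data were known when it was set. Of these, 36 were among the 20207 genes listed for each sample, and Lamb1 was not listed under that name. A test was possible for 35 of them, since Mmp3 (matrix metalloproteinase 3) had 0 reads in 2 samples and did not pass the filter of at least 1 read in every sample that left 12731 genes.

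The cells were NIH3T3 mouse fibroblasts that stably carried an FKBP-derived destabilizing domain fused to superfolder GFP, and they were a population sorted for high GFP rather than 1 clone. The ligand Shield-1, which keeps the domain folded, stayed in the medium of every group used here. The 6 groups had 3 samples each: unstressed cells at 37°C and 0 min (control), cells moved to 42°C for 45 or 135 min (heat shock, HS), and cells given 5 µM tunicamycin for 45, 135 or 405 min. Heat unfolds proteins throughout the cell, whereas tunicamycin blocks N-linked glycosylation in the endoplasmic reticulum (ER), and poly(A) RNA was sequenced to follow the response to each. The sources used here do not say that samples of a group came from separate cultures, so p-values measure the spread between these samples, which may be technical.

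The extracellular matrix is built from proteins that are folded and glycosylated in the ER before secretion. Fibronectin and collagen form fibres outside fibroblasts, lysyl oxidases cross-link collagen and elastin, metalloproteinases cut the matrix, and the Timp proteins inhibit metalloproteinases. An integrin is a heterodimer of an alpha and a beta chain that joins the matrix to the actin cytoskeleton, and many secreted and surface proteins of this kind carry N-linked glycans.

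Reads counted on genes ranged from 33415592 to 66478268 a sample. Levels by sample are given as CPM, read counts scaled to a common library total by TMM over all 18 samples, and 3 reads corresponded to 0.0451 to 0.0898 CPM, a floor that covers counting error only. Log2 fold changes, their standard errors (SE) and adjusted p-values come from edgeR's quasi-likelihood test of the 2 groups named, with Benjamini-Hochberg adjustment over the 12731 genes, and a gene is called higher or lower where the adjusted p-value is under 0.05. The fibroblast label held, since all 8 fibroblast markers were present and summed to 8373 to 8669 RPKM (reads scaled by gene length and library total) in the control. All markers of epithelium, endothelium and skeletal muscle (4 each) stayed under 1 RPKM in every sample, and of 4 leukocyte markers only Cd68 passed it, at up to 7.61 RPKM. The heat shock gene Hspa1b changed by a log2 fold change of 7.24 at 135 min of HS (SE 0.651, adjusted p = 0.0058) and the ER chaperone gene Hspa5 by 3.73 at 405 min of tunicamycin (SE 0.154, adjusted p = 4.64e-06). At 45 min of HS, Hspa1b (4.99, adjusted p = 0.192) and the heat shock gene Hsph1 (1.1, adjusted p = 0.227) did not pass. Nor did Hspa5 (-0.72, adjusted p = 0.135) and the ER stress gene Ddit3 (1.54, adjusted p = 0.0706) at 135 min of tunicamycin. A lack of calls in these groups does not show a lack of response.

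Several libraries stood apart from the others of their group, and this touches most of the results below. The first axis of the spread within groups held 68.1% of that spread, and its gene weights followed the GC content of transcripts across genes (Spearman's rho = 0.704, a description over genes that share libraries). Scores on this axis were highest in replicate 2 at 135 min of HS (69.6) and replicate 1 at 135 min of tunicamycin (50.1). Replicate 2 at 45 min of HS came next (48.2). The lowest were replicate 3 at 45 min of HS (-77.6) and replicate 1 at 135 min of HS (-55.4). The part of this axis in the changes described was not tested. The median GC content of the members was 52.5% (42% to 62.6%), against 50.6% for the genes tested.

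In unstressed cells the members ran from abundant matrix genes down to barely detected ones, and integrin chains lay among the matrix genes of lower level. By RPKM, which corrects for gene length and so allows genes to be compared, the highest was Bgn (biglycan, a small leucine-rich proteoglycan) at 1033 ± 60.1 RPKM (SD, n = 3). It was followed by Fn1 (fibronectin) at 891 ± 153, Sparc at 783 ± 111, Fbln2 (fibulin 2) at 761 ± 137, Serpinh1 at 603 ± 35.0 and the lysyl oxidase Lox at 551 ± 150 RPKM. Bgn, Fn1 and Sparc each overlapped the next in this order, Fbln2 lay above Serpinh1 in every control sample, and Serpinh1 and Lox overlapped. These levels placed Bgn at rank 73 and Lox at rank 121 of the 20207 genes.

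The next block ran from Spp1 (osteopontin) at 245 ± 28.2 RPKM to the membrane-bound metalloproteinase Mmp14 at 114 ± 15.6, and neighbours among these 9 genes overlapped. Of the enzymes in it, Mmp2 stood at 191 ± 8.91 and Loxl1 at 161 ± 55.0, and the inhibitors Timp2 and Timp1 stood at 222 ± 16.9 and 137 ± 20.6 RPKM. The thrombospondins Thbs1 and Thbs2, large matricellular glycoproteins, had like levels of 134 ± 28.1 and 131 ± 35.5 RPKM.

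Integrin transcripts were lower and headed by Itgb1, the beta chain that pairs with most alpha chains, at 83.4 ± 20.8 RPKM. The alpha chain of the fibronectin receptor, Itga5, had 51.0 ± 1.47 and Itgb5 42.01 ± 4.86, and the 2 did not overlap. Itga3, which forms a laminin receptor, had 22.1 ± 1.88, Itga6 14.7 ± 4.17 and Itgav 9.79 ± 2.24 RPKM, and Itgb3, the beta chain of a vitronectin receptor, had 1.14 ± 0.211. Close to or under 1 RPKM were 7 members, namely Itgb3, Loxl2, Lum (lumican), Itga7, Fbln1, Mmp3 and Eln (tropoelastin), and Eln, at 0.0551 ± 0.0467 RPKM, and Mmp3, at 0.0771 ± 0.0397, overlapped at the bottom of the order.

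**Figure D1:**
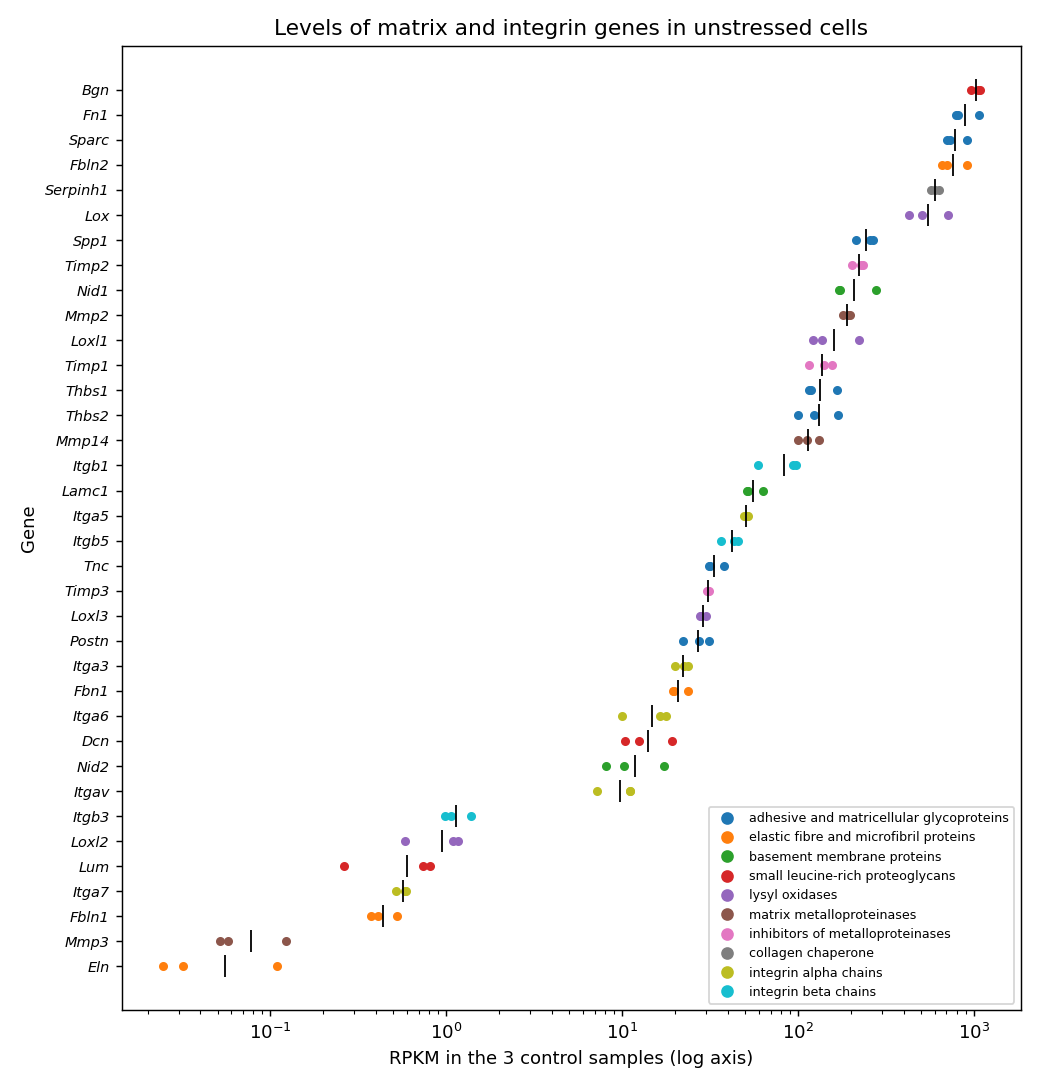
RPKM (log axis) of the 36 listed members in the 3 control samples, 1 point per sample, coloured by role, with a black tick at the mean. Bgn leads at 1033 RPKM, integrin chains lie at 83.4 RPKM and below, and Eln and Mmp3 lie under 0.1 RPKM in their means.

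Across the 5 stressed groups, few members, like few of all genes, were called before 405 min of tunicamycin, when most members fell. The counts of members called higher and lower against the control were 0 and 0 at 45 min of HS, 2 and 2 at 135 min of HS, 1 and 1 at 45 min of tunicamycin, 0 and 0 at 135 min of tunicamycin, and 2 and 24 at 405 min of tunicamycin, of 35 tested. Of all genes tested, 0.0% and 0.0%, 4.75% and 2.64%, 4.01% and 2.17%, 0.126% and 0.00785%, and 23.3% and 23.5% were called in the same order. On simulated counts the test recovered 6% of genes changed by a log2 of 1 for 135 min of HS and 73% for 405 min of tunicamycin. All 5 comparisons share the same 3 control samples. These were taken at 0 min, and no later unstressed group or vehicle group is among the groups. Stress, time in culture and any vehicle therefore cannot be told apart.

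**Figure D2:**
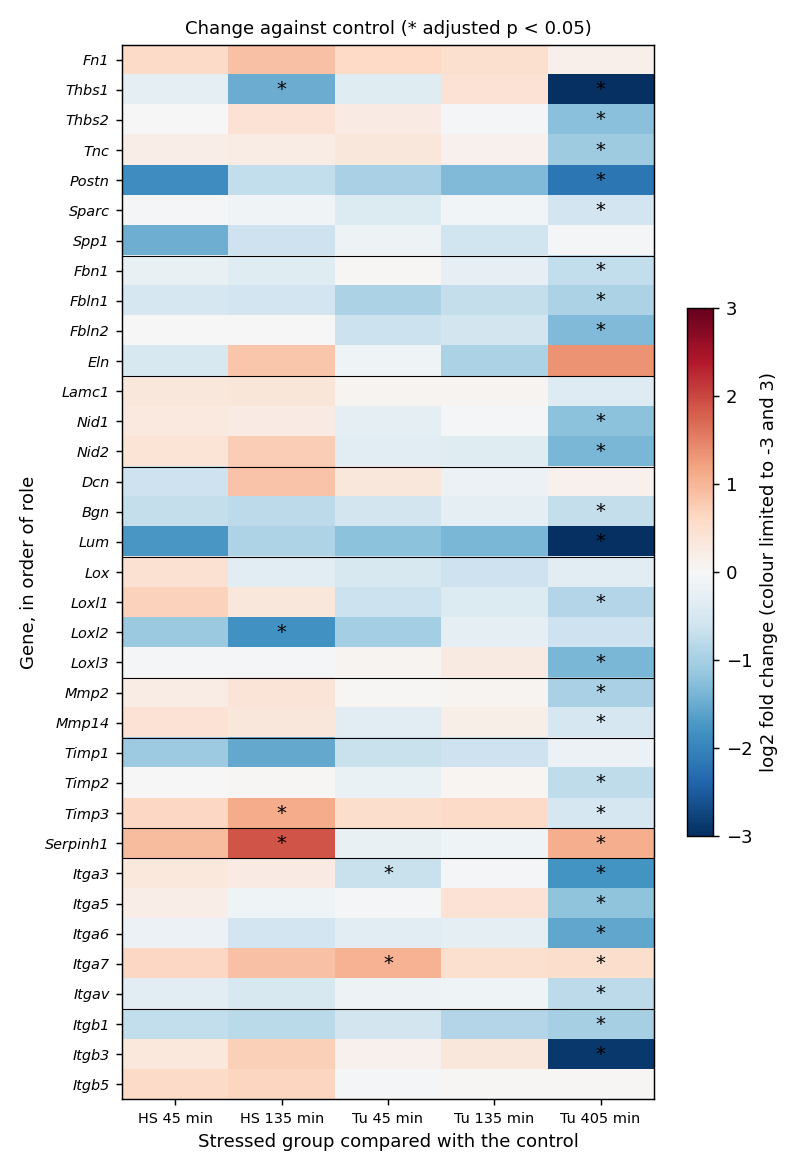
Log2 fold change against the control of the 35 members tested (rows, by role, separated by lines) in each stressed group (columns), with asterisks where the adjusted p-value of edgeR's quasi-likelihood test was under 0.05. The column of 405 min of tunicamycin is mostly blue, with 24 members lower and 2 higher (23.5% and 23.3% of all genes tested), and colours stop at -3 and 3.

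At 45 min of HS no member passed the test in either direction, and 0.0% of all genes tested were called higher and 0.0% lower by edgeR. At an unadjusted p-value under 0.05, 3 members were higher (Serpinh1, Timp3 and Itgb5) and 0 lower, against 12.3% and 7.16% of all genes. The DESeq2 Wald test also called 0 members, against 3.18% of the genes it tested higher and 0.536% lower. Serpinh1, the ER chaperone that binds procollagen, had 3209, 3959 and 1909 CPM against 1735, 1464 and 1528 CPM in the control, so the groups did not overlap (log2 fold change 0.94, SE 0.309, adjusted p = 0.23). A further 4 members lay above the control without overlap and 2 below it, against 12.5% and 12.8% of all genes tested. The comparison turned on 1 library: without replicate 3 at 45 min of HS, 7 members were called higher, Serpinh1 and Timp3 among them, and 9 lower, among them Spp1, Postn (periostin) and Dcn (decorin). Over all genes that fit called 21.5% higher and 23.9% lower, so the members' counts were near the background.

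After 135 min of HS, Serpinh1 and Timp3 were higher than in the control and Thbs1 and Loxl2 were lower. These were 2 of 35 members higher, with 4.75% of all genes called higher, and 2 of 35 lower, with 2.64% of all genes called lower. The median log2 fold change of the members was 0.04, against -0.02 over all genes tested.

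Serpinh1 (chromosome 7 of mm9, 106493885 to 106501749) had 3722, 7431 and 6319 CPM against 1735, 1464 and 1528 CPM in the control. All 3 heated samples lay above all controls, with replicate 1 well under the others, and the log2 fold change was 1.89 (SE 0.31, adjusted p = 0.0199). Timp3, an inhibitor of metalloproteinases that binds to the matrix (chromosome 10 of mm9, 85763157 to 85812250), had 299, 406 and 395 CPM against 173, 167 and 167 CPM (log2 fold change 1.12, SE 0.202, adjusted p = 0.0233). The control samples of Timp3 were close together, so that the spread came from the heated samples.

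Thbs1 (chromosome 2 of mm9, 117937658 to 117952869) had 332, 338 and 302 CPM against 1175, 800 and 764 CPM in the control (log2 fold change -1.49, SE 0.239, adjusted p = 0.0199). Here the heated samples were alike and the control was spread, with its replicate 1 the highest. Loxl2, a lysyl oxidase of low level in these cells, had 1.53, 1.40 and 1.93 CPM against 3.67, 6.95 and 6.41 CPM (log2 fold change -1.81, SE 0.334, adjusted p = 0.0242). It also ranged from 0.554 to 6.65 CPM between the samples at 45 min of HS, and the fit of all 6 groups together did not call it. In the fit blocked on replicate number, 0 of the 4 were called. Replicates 2 and 1 at 135 min of HS lay at opposite ends of the axis (69.6 and -55.4). All 4 calls held where 1 of these libraries was left out and the other kept. Each was lost without replicate 2 or 3 of the control or replicate 3 at 135 min of HS, with log2 fold changes from 1.70 to 2.13 for Serpinh1, 1.06 to 1.25 for Timp3, -1.61 to -1.26 for Thbs1 and -2.03 to -1.63 for Loxl2.

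**Figure D3:**
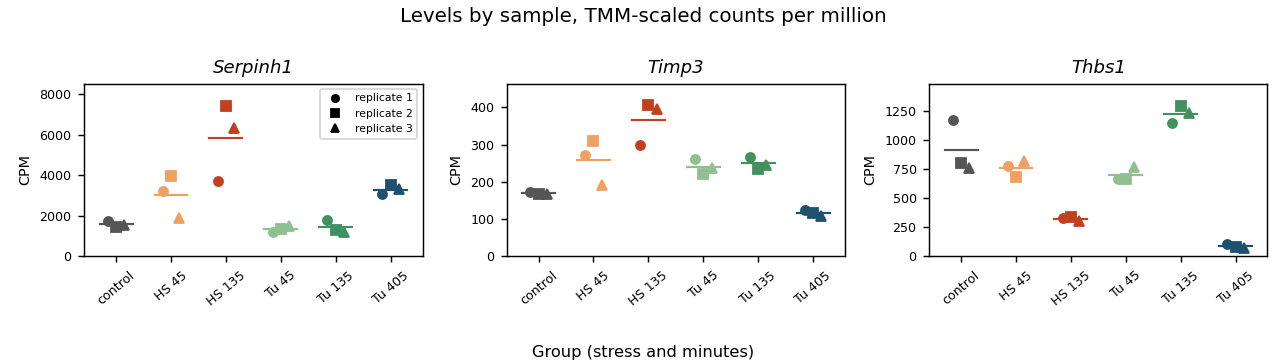
TMM-scaled CPM of Serpinh1, Timp3 and Thbs1 in each of the 18 samples, with symbols for the replicate and a line at the mean of each group. Serpinh1 reaches 3722 to 7431 CPM at 135 min of HS and 3067 to 3505 CPM at 405 min of tunicamycin, while Thbs1 falls to 71.0 to 108 CPM at 405 min of tunicamycin.

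The remaining 31 members did not pass the test at 135 min of HS, and some had wide gaps between group means. Fn1 had 14560, 19890 and 14100 CPM against 10820, 7842 and 7483 CPM, above the control in every sample (log2 fold change 0.89, SE 0.288, adjusted p = 0.091). Timp1 had 77.9, 22.9 and 45.5 CPM against 125, 160 and 142 CPM (log2 fold change -1.54, SE 0.407, adjusted p = 0.0568). Itgb1 had 318, 144 and 231 CPM against 304, 455 and 463 CPM, with overlap (log2 fold change -0.82, SE 0.322, adjusted p = 0.141). In all, 7 members lay above and 5 below the control without overlap, against 18.1% and 19.0% of all genes.

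The 250 bases before the start of Serpinh1 and Timp3, the members called higher under HS, are printed to show how many of the GAA and TTC units that make up heat shock elements they hold. The sequences are those of RefSeq on GRCm38.p6, not mm9, from chr7:99353240-99353489 on the minus strand for Serpinh1 and chr10:86300162-86300411 on the plus strand for Timp3. Capitals mark each GAA or TTC.
Serpinh1: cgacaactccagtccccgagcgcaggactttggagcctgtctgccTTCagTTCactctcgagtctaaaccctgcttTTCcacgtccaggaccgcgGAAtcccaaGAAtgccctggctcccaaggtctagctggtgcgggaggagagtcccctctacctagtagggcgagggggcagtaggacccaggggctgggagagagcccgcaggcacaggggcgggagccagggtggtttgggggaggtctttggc
Timp3: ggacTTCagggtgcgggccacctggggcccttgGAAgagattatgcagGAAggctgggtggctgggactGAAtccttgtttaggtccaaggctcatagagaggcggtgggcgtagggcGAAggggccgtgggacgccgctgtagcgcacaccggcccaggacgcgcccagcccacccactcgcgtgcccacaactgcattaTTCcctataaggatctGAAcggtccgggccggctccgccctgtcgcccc
The Serpinh1 window held 5 such units and the Timp3 window 7, against a median of 8 over all windows of this length (3 to 14 from the 5th to the 95th percentile). A pair of units facing each other, GAANNTTC or TTCNNGAA, was in neither, and was in 12.8% of the 32851 windows of this length and, of the 21 members with a sequence, in 2 (Itga5 and Itgb5). The ER stress response element was in 0.113% of windows and in 0 members, and the core of the unfolded protein response element, TGACGTGG, was in 0.563% of windows and in 1 member, Timp1. Both strands were searched. The cyclic AMP response element TGACGTCA (1.55% of windows), which shares its first letters with that core, was in 0 members and the AP-1 sequence TGANTCA (6.75%) in 1, Mmp3. These matches describe letters in these windows alone.

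At 45 min of tunicamycin the integrin alpha chains Itga7 and Itga3 were the members that passed the test, in opposite directions. This was 1 of 35 members higher, with 4.01% of all genes called higher, and 1 lower, with 2.17% called lower. Itga7, which forms a laminin receptor best known from muscle, had 4.84, 4.67 and 6.71 CPM against 2.86, 2.41 and 2.699 CPM (log2 fold change 1.04, SE 0.2, adjusted p = 0.0288). Itga3 (chromosome 11 of mm9, 94905796 to 94938028) had 71.5, 73.2 and 90.8 CPM against 141, 126 and 111 CPM (log2 fold change -0.67, SE 0.145, adjusted p = 0.0413), and the fit of all 6 groups together did not call it.

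Both calls were lost in 5 of 6 fits that left out 1 sample, all but the fit without replicate 1 of the control, where 4 members were called higher and 6 lower, against 10.9% and 8.7% of all genes. At an unadjusted p-value under 0.05, 10 members were lower and 4 higher at this time, against 11.5% and 14.1% of all genes. Fbln2, a fibulin of elastic fibres, had 2139, 2326 and 2926 CPM against 4850, 3305 and 3486 CPM (log2 fold change -0.64, SE 0.2, adjusted p = 0.0968). Loxl1 had 359, 378 and 468 CPM against 912, 470 and 524 CPM (log2 fold change -0.65, SE 0.258, adjusted p = 0.164), with replicate 1 of the control far above the other two. Fn1 was above the control in every sample, with 11810, 12400 and 14950 CPM (log2 fold change 0.60, SE 0.195, adjusted p = 0.11). Timp3 had 261, 220 and 236 CPM against 173, 167 and 167 CPM, also without overlap (log2 fold change 0.52, SE 0.123, adjusted p = 0.0506).

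No member passed edgeR's test at 135 min of tunicamycin, where 0.126% of all genes were called higher and 0.00785% lower. At an unadjusted p-value under 0.05, 2 members were higher and 5 lower, against 10.1% and 8.49% of all genes. The DESeq2 Wald test called 1 higher (Timp3) and 1 lower (Itgb1), near its share of 2.71% and 2.73% over the genes it tested. Timp3 had 268, 236 and 245 CPM against 173, 167 and 167 CPM (log2 fold change 0.58, SE 0.15, adjusted p = 0.13). Itgb1 had 194, 261 and 202 CPM against 304, 455 and 463 CPM (log2 fold change -0.88, SE 0.226, adjusted p = 0.129). Neither gene overlapped the control, and 5 members in all lay above it and 6 below it, against 13.7% and 13.6% of all genes.

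At 405 min of tunicamycin, 24 of 35 members were lower than in the control, with 23.5% of all genes called lower, and 2 were higher, with 23.3% of all genes called higher. The fall reached adhesive glycoproteins, microfibril and basement membrane proteins, proteoglycans, cross-linking enzymes, metalloproteinases, their inhibitors and most integrin chains, and the collagen chaperone Serpinh1 rose. The median log2 fold change was -0.79 for the members and -0.01 for all genes tested. With a control of 0 min, the drug and 405 min of culture cannot be told apart here. All 3 samples lay below all controls for 24 members, against 29.5% of all genes, and above them for 3, against 29.2%. The 8 fibroblast markers, collagens among them, summed to 3412 to 3846 RPKM at this time against 8373 to 8669 RPKM in the control, and their part in the result was not tested. In such bulk samples of 1 sorted cell line, fewer cells that express these genes and less of their RNA per cell cannot be told apart.

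Of the 7 adhesive and matricellular glycoproteins, 5 fell. Thbs1 had 108, 75.4 and 71.0 CPM against 1175, 800 and 764 CPM, the deepest fall among the abundant members (log2 fold change -3.41, SE 0.246, adjusted p = 3.94e-05). Its relative Thbs2 had 414, 369 and 344 CPM against 1226, 684 and 835 CPM (log2 fold change -1.26, SE 0.221, adjusted p = 0.00236). By RPKM, where the 2 had like levels in the control, Thbs1 stood at 11.96 ± 3.20 and Thbs2 at 51.8 ± 6.31 RPKM at 405 min.

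Postn, a matricellular protein that binds collagen, had 27.0, 20.0 and 18.6 CPM against 86.4, 101 and 114 CPM (log2 fold change -2.17, SE 0.179, adjusted p = 7.05e-05). Its 3 samples at this time lay within 1.45 times of each other, and the fit of all 6 groups together did not call it. Tnc (tenascin C) had 139, 116 and 124 CPM against 317, 248 and 242 CPM (log2 fold change -1.07, SE 0.15, adjusted p = 0.000821). Sparc, a collagen-binding glycoprotein, had 1375, 1429 and 1409 CPM against 2553, 1880 and 1915 CPM (log2 fold change -0.57, SE 0.163, adjusted p = 0.0208), and without any 1 of the samples at 405 min it was no longer called.

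Fn1 and Spp1 did not pass the test. Fn1 had 9707, 9604 and 9490 CPM, within the control's range of 7483 to 10820 CPM (log2 fold change 0.16, SE 0.187, adjusted p = 0.511). Spp1 had 396, 336 and 405 CPM against 367, 418 and 428 CPM, with overlap.

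Among the elastic fibre and microfibril genes, Fbn1 (fibrillin 1), Fbln1 and Fbln2 fell. Fbln2 had 1690, 1562 and 1332 CPM against 4850, 3305 and 3486 CPM (log2 fold change -1.33, SE 0.195, adjusted p = 0.00103). Fbn1, the main protein of microfibrils, had 157, 142 and 133 CPM against 287, 222 and 222 CPM (log2 fold change -0.74, SE 0.148, adjusted p = 0.00442). Fbln1, with 42 to 86 reads a sample in these groups, changed by -0.95 on the log2 scale (SE 0.244, adjusted p = 0.013). Eln had 34, 33 and 38 reads against 20, 6 and 6 (log2 fold change 1.35, SE 0.504, adjusted p = 0.0559) and did not pass. It was called higher without a filter, by the DESeq2 Wald test, in the shared fit of all groups and with an offset for GC content. With edgeR's filterByExpr, DESeq2 size factors, total counts or the replicate number as a block alone it was not called.

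The nidogens, which link laminin to type IV collagen in basement membranes, both fell. Nid1 had 702, 622 and 561 CPM against 2064, 1218 and 1177 CPM (log2 fold change -1.22, SE 0.237, adjusted p = 0.00377). Nid2 had 27.4, 27.3 and 24.2 CPM against 103, 45.6 and 57.2 CPM (log2 fold change -1.36, SE 0.283, adjusted p = 0.00518). In both, replicate 1 of the control was the highest sample by a wide gap, and without it the log2 fold changes were -0.90 and -0.94 and both calls held. Lamc1, a laminin gamma chain, had 381, 380 and 366 CPM against 590, 453 and 450 CPM, below the control without overlap, and did not pass (log2 fold change -0.39, SE 0.147, adjusted p = 0.0597). It was called lower with total counts, the DESeq2 Wald test or an offset for GC content. Other filters, DESeq2 size factors, the shared fit of all groups and the block alone did not call it.

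Of the 3 small leucine-rich proteoglycans, Bgn and Lum fell and Dcn did not pass. Bgn had 1952, 1643 and 1641 CPM against 3153, 2905 and 2626 CPM (log2 fold change -0.71, SE 0.149, adjusted p = 0.00556), and the fit of all 6 groups together did not call it. Lum had 3, 7 and 4 reads against 74, 35 and 83 reads (log2 fold change -4.11, SE 0.564, adjusted p = 0.000745). As a ratio of reads per total reads this was 0.0549, with an exact 95% interval of 0.0295 to 0.0945 that covers counting error only. Dcn had 34.5, 28.1 and 31.7 CPM against 26.8, 21.1 and 38.9 CPM, with overlap.

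The lysyl oxidases differed among themselves. Loxl3 had 53.3, 54.6 and 48.4 CPM against 149, 131 and 128 CPM (log2 fold change -1.37, SE 0.122, adjusted p = 0.000105), and Loxl1 had 324, 360 and 335 CPM against 912, 470 and 524 CPM (log2 fold change -0.89, SE 0.247, adjusted p = 0.0188). The call of Loxl1 was lost without any 1 of the samples at 405 min. Lox, the most abundant of the family, had 1802, 1928 and 1788 CPM against 3158, 1778 and 2086 CPM and did not pass (log2 fold change -0.33, SE 0.22, adjusted p = 0.25). Loxl2 had 3.25, 3.26 and 4.48 CPM against 3.67, 6.95 and 6.41 CPM (log2 fold change -0.61, SE 0.262, adjusted p = 0.0882).

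Both metalloproteinases tested fell, and so did 2 of the 3 inhibitors. Mmp2, a gelatinase, had 375, 338 and 318 CPM against 738, 638 and 667 CPM (log2 fold change -0.97, SE 0.132, adjusted p = 0.000721). Mmp14, which activates Mmp2 at the cell surface, had 244, 254 and 225 CPM against 415, 300 and 332 CPM (log2 fold change -0.51, SE 0.152, adjusted p = 0.0238), and its call was lost without any 1 of the samples at 405 min.

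Timp2 had 538, 542 and 548 CPM against 896, 961 and 964 CPM (log2 fold change -0.77, SE 0.118, adjusted p = 0.00123). Timp3 had 125, 117 and 109 CPM against 173, 167 and 167 CPM (log2 fold change -0.51, SE 0.112, adjusted p = 0.00698), so the inhibitor that was higher than the control at 135 min of HS was lower than it here. Timp1 had 112, 124 and 138 CPM against 125, 160 and 142 CPM and did not pass (log2 fold change -0.17, SE 0.139, adjusted p = 0.351). Mmp3 was not tested, with 0 to 16 reads in every sample of the series.

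Serpinh1 had 3067, 3505 and 3307 CPM at 405 min of tunicamycin against 1735, 1464 and 1528 CPM (log2 fold change 1.08, SE 0.146, adjusted p = 0.00067), and all 6 fits that left out 1 sample kept the call. It was the one abundant member called higher, and the other was Itga7, at 3.66, 3.85 and 3.73 CPM against 2.86, 2.41 and 2.699 CPM (log2 fold change 0.52, SE 0.162, adjusted p = 0.0298), whose call was lost in 5 of those 6 fits.

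Of the 8 integrin chains, 6 fell at 405 min of tunicamycin, 1 rose and Itgb5 did not pass. Itgb3 (chromosome 11 of mm9, 104469314 to 104531785) had 1.18, 1.06 and 0.828 CPM against 9.74, 6.55 and 7.02 CPM (log2 fold change -2.90, SE 0.235, adjusted p = 6.66e-05). Itga3 had 34.5, 34.9 and 37.7 CPM against 141, 126 and 111 CPM (log2 fold change -1.80, SE 0.135, adjusted p = 4.93e-05). Itga6, like Itga3 part of a laminin receptor, had 27.0, 23.7 and 21.7 CPM against 51.3, 86.6 and 78.7 CPM (log2 fold change -1.56, SE 0.201, adjusted p = 0.000548).

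Itga5 had 115, 114 and 106 CPM against 263, 263 and 257 CPM (log2 fold change -1.20, SE 0.109, adjusted p = 0.000109), with little spread in either group. Its partner in the fibronectin receptor, Itgb1, had 216, 214 and 174 CPM against 304, 455 and 463 CPM (log2 fold change -0.99, SE 0.183, adjusted p = 0.00303), while fibronectin itself did not pass the test. Itgav, the alpha chain that joins Itgb3 or Itgb5, had 62.1, 45.5 and 29.5 CPM against 62.0, 90.9 and 88.6 CPM (log2 fold change -0.79, SE 0.264, adjusted p = 0.0374). Its groups overlapped, and 4 of 6 fits with 1 sample removed did not call it. Itgb5 had 177, 161 and 149 CPM against 184, 139 and 163 CPM, with overlap.

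**Figure D4:**
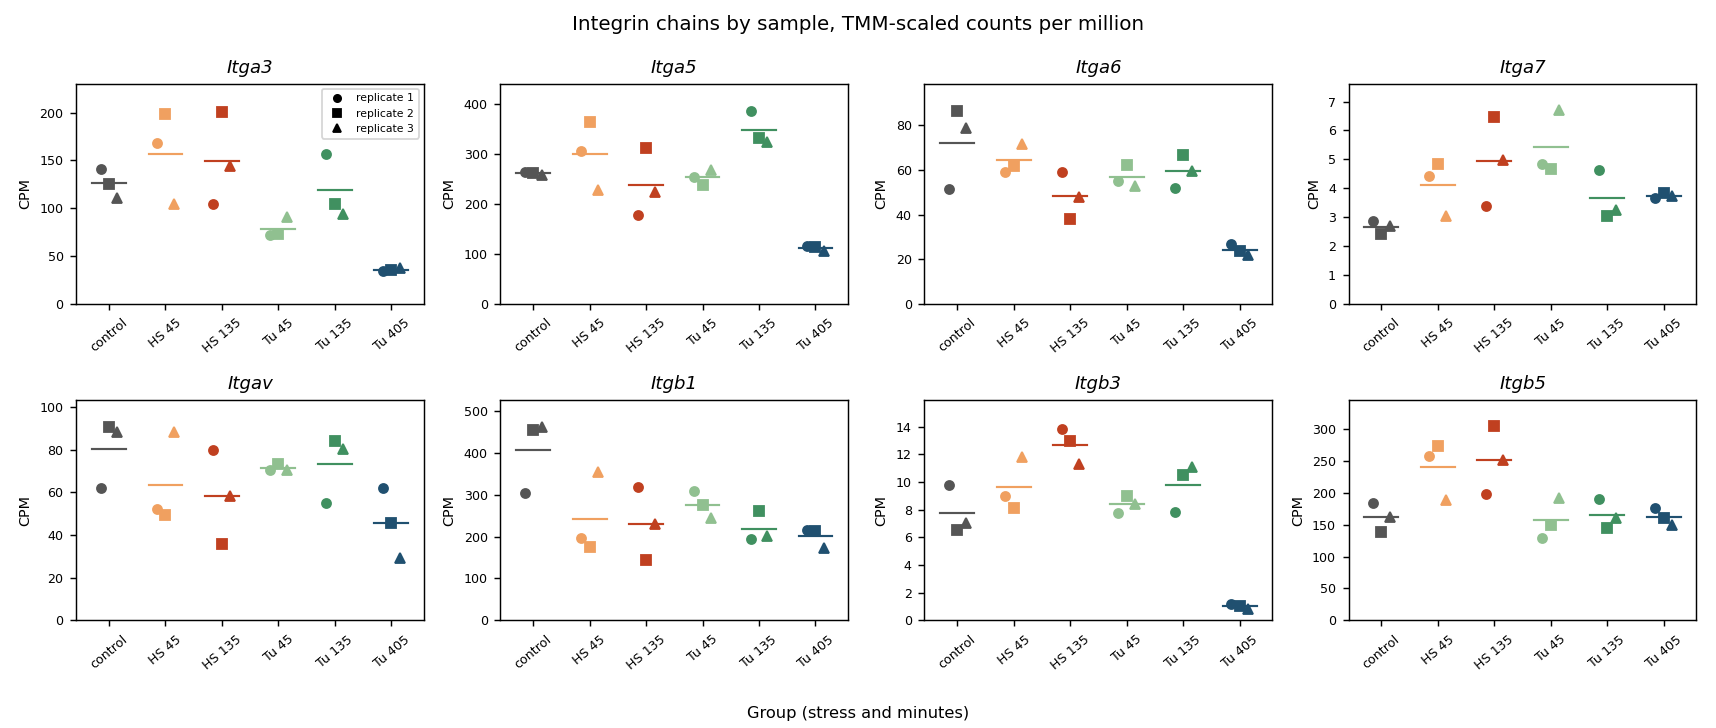
TMM-scaled CPM of the 8 integrin chains in the 18 samples, with symbols for the replicate and a line at the mean of each group. At 405 min of tunicamycin Itga3 (34.5 to 37.7 CPM), Itga5 (106 to 115 CPM), Itga6 (21.7 to 27.0 CPM) and Itgb3 (0.828 to 1.18 CPM) lie below every other group, whereas Itgb5 overlaps the control.

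Compared with 135 min of tunicamycin, 405 min again had most members lower, without use of the control samples. Time in culture differed between these groups too, and cannot be told apart from time with the drug. Of 35 members, 19 were lower, with 22.4% of all genes called lower, and 2 were higher, with 21.4% of all genes called higher, and the median was -0.70 against -0.01 over all genes. The groups did not overlap for 3 members above and 21 below, against 29.8% and 26.9% of all genes. Thbs1, at 1151, 1290 and 1233 CPM at 135 min, had the largest difference of a member (log2 fold change -3.88, SE 0.205, adjusted p = 3.19e-05), followed by Itgb3 at 7.82, 10.5 and 11.1 CPM (log2 fold change -3.28, SE 0.232, adjusted p = 7.61e-05). Timp3 and Itga5 had their highest means under tunicamycin at 135 min, 249 and 347 CPM, and changed by -1.11 (SE 0.125, adjusted p = 0.000473) and -1.66 (SE 0.13, adjusted p = 0.000109). Eln rose from 5, 7 and 4 reads to 34, 33 and 38 reads (log2 fold change 2.26, SE 0.281, adjusted p = 0.000722), a ratio of reads per total reads of 4.61 with an exact 95% interval of 2.71 to 8.36 for counting error only. Bgn, Postn, Fbln1, Loxl1, Itgav and Itgb1, called lower against the control, did not pass here, and the mean CPM of Itgb1 was 219 at 135 min and 201 at 405 min.

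The 2 HS times were not separated by the test for any member, with 0.0% of all genes called in either direction by edgeR. At an unadjusted p-value under 0.05, 1 member was higher at 135 min (Eln) and 2 were lower (Lox and Thbs1), against 5.17% and 6.46% of all genes, and the DESeq2 Wald test called Thbs1 lower, with 1.67% of the genes it tested. The groups did not overlap for 2 members in either direction, against 9.43% of all genes above and 8.32% below. The mean of Serpinh1 went from 3026 to 5824 CPM between these times (log2 fold change 0.89, SE 0.384, adjusted p = 0.442).

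HS and tunicamycin were compared directly at the times they shared. At 45 min, 0 members passed edgeR's test in either direction, with 0.0628% of all genes called higher under HS and 0.141% lower, and 9 members were higher and 0 lower at an unadjusted p-value under 0.05, against 14.4% and 9.65% of all genes. The DESeq2 Wald test called 5 members higher under HS (Itga3, Lox, Loxl1, Mmp14 and Serpinh1) and 0 lower, against 6.01% and 3.05% of the genes it tested. Loxl1 had 1100, 1398 and 599 CPM under HS against 359, 378 and 468 CPM under tunicamycin (log2 fold change 1.36, SE 0.323, adjusted p = 0.123). The groups did not overlap for 9 members above and 1 below, against 13.1% and 15.7% of all genes. Without replicate 3 at 45 min of HS, 10 members were called higher and 9 lower, near the 26.8% and 28.8% of all genes called in that fit.

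At 135 min, Serpinh1 was higher under HS than under tunicamycin, where it had 1805, 1289 and 1196 CPM (log2 fold change 2.0, SE 0.327, adjusted p = 0.0404), and Thbs1 was lower (log2 fold change -1.95, SE 0.181, adjusted p = 0.0127). These were 1 of 35 members higher, with 1.3% of all genes called higher, and 1 lower, with 0.817% called lower. Counting these, 11 members lay above and 3 below without overlap, against 13.4% and 13.1% of all genes. Thbs1 lost its call in 4 and Serpinh1 in 5 of 6 fits that left out 1 sample, with log2 fold changes of -1.99 to -1.90 and 1.82 to 2.24.

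Some members varied far more between samples of a group than the others did. Between the highest and lowest sample of a group, more than 2 times separated 3 of 35 members in the control, 10 at 45 min and 9 at 135 min of HS, and 3, 7 and 2 at 45, 135 and 405 min of tunicamycin. Over all genes tested the shares were 16.5%, 39.9%, 34.7%, 9.1%, 20.8% and 5.6% in the same order. Spp1, a secreted phosphoglycoprotein, had 26.0, 17.9 and 396 CPM at 45 min of HS, 488, 18.2 and 283 CPM at 135 min of HS, and 66.8, 342 and 379 CPM at 135 min of tunicamycin. Its control samples held 367, 418 and 428 CPM. At 45 min of HS only replicate 3 lay at that level, and the others were far below it. Replicate 2 at 135 min of HS and replicate 1 at 135 min of tunicamycin were far below it, and the others of those groups were nearer to it.

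Dcn followed the same samples, with 2.41, 2.98 and 51.2 CPM at 45 min of HS, 93.1, 4.10 and 60.7 CPM at 135 min of HS and 3.56, 31.0 and 41.2 CPM at 135 min of tunicamycin. Postn had 7.27, 5.25 and 70.4 CPM at 45 min of HS and 9.58, 50.9 and 57.3 CPM at 135 min of tunicamycin. The low samples of these genes were the libraries with high scores on the axis given above. On that axis, Dcn, Spp1 and Postn lay at percentiles 0.141, 0.251 and 0.817 of the genes tested, Loxl2 at 3.39, Lum at 4.34 and Timp1 at 7.10. Serpinh1, Itga3 and Loxl1 lay toward the other end, at 86.3, 86.3 and 90.5, and Thbs1 was near the middle at 47.2. Changes of Spp1 at 45 min of HS (log2 fold change -1.46, SE 1.06, adjusted p = 0.389) and at 135 min of tunicamycin (log2 fold change -0.59, SE 0.53, adjusted p = 0.583) were within this spread.

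**Figure D5:**
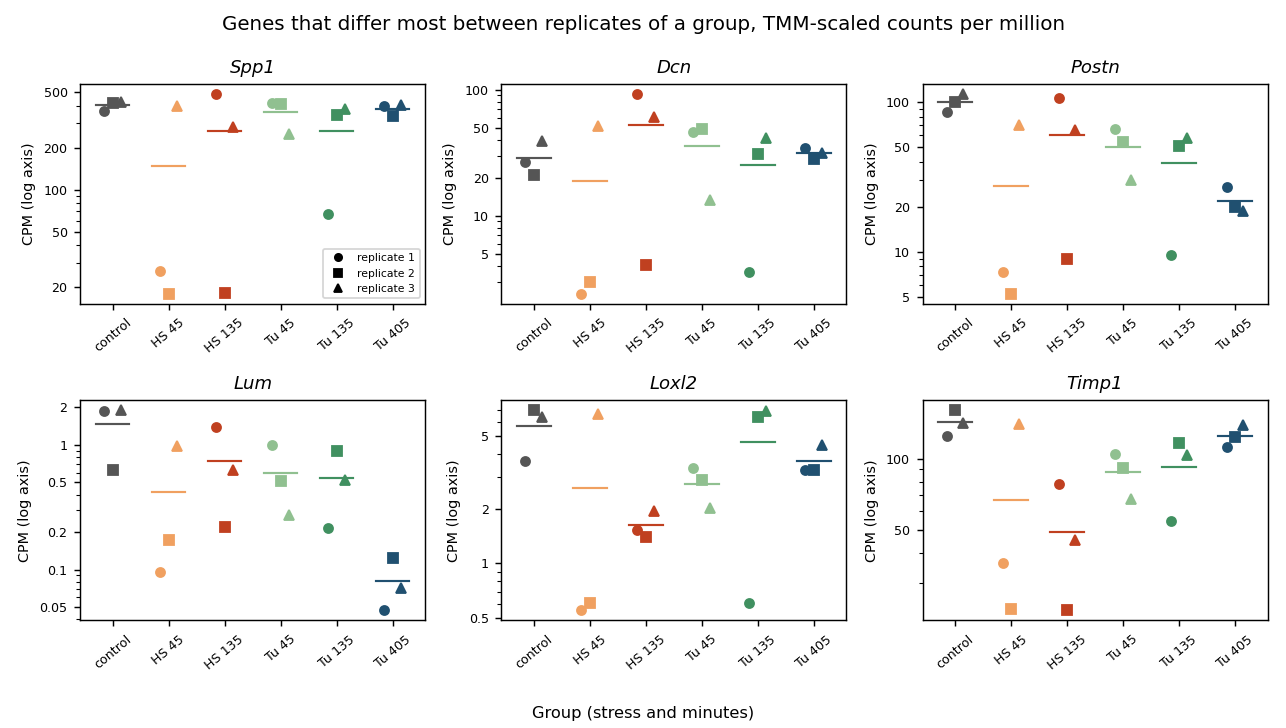
TMM-scaled CPM (log axes) of 6 members with wide spread between samples, with symbols for the replicate and a line at the arithmetic mean of each group. Spp1, Dcn and Postn are low in replicates 1 and 2 at 45 min of HS, replicate 2 at 135 min of HS and replicate 1 at 135 min of tunicamycin, and their samples at 405 min of tunicamycin lie close together.

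Genes of related function were taken as 6 lists of 158 genes in all, of which 136 were tested. At 405 min of tunicamycin 63 were lower and 17 higher, with a median log2 fold change of -0.46, against 23.5% lower, 23.3% higher and a median of -0.01 over all genes. The same shares are the background of each of the lists that follow. Of 32 other matrix glycoproteins and proteoglycans, 18 were lower and 1 higher, led by Aspn (asporin, -3.24, SE 0.517, adjusted p = 0.0015) and Npnt (nephronectin, an integrin ligand, -3.14, SE 0.178, adjusted p = 1.59e-05). Of 7 other laminin chains, 3 were lower, Lama2 (-1.13, SE 0.148, adjusted p = 0.000593) among them, and 0 higher. Of 23 other integrins and syndecans, 8 were lower and 2 higher, and the syndecans Sdc4 and Sdc3, heparan sulfate proteoglycans of the cell surface, changed by -2.48 (SE 0.15, adjusted p = 1.95e-05) and -2.27 (SE 0.255, adjusted p = 0.000288).

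Inside the cell, 12 of 25 focal adhesion adaptors were lower and 3 higher, and Tns1 (tensin 1) changed by -1.91 (SE 0.189, adjusted p = 0.000158) and Parvb by -1.43 (SE 0.119, adjusted p = 7.16e-05). Of 35 other matrix proteases and inhibitors, 20 were lower and 7 higher. The urokinase gene Plau changed most in this list, with 33.4 ± 1.36 CPM in the control and 2.13 ± 0.167 CPM at 405 min of tunicamycin (SD, n = 3). This is -3.95 on the log2 scale (SE 0.146, adjusted p = 2.68e-06), and Adam12 followed (-2.83, SE 0.144, adjusted p = 1.13e-05). Of 14 collagen-modifying enzymes of the ER, 4 were higher, near the 23.3% of all genes, and 2 lower. Ppib, a prolyl isomerase that acts on procollagen, changed by 1.72 (SE 0.175, adjusted p = 0.000182) and the prolyl hydroxylase Leprel1 by 1.55 (SE 0.225, adjusted p = 0.000963).

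At 135 min of HS, 11 of the 136 were higher and 5 lower, with a median of 0.26, against 4.75% higher, 2.64% lower and a median of -0.02 over all genes. Over all genes these calls fell from 605 and 336 to at most 12 higher and 3 lower without replicate 2 or 3 of the control or replicate 3 at 135 min of HS, and to 0 in the fit blocked on replicate number. The collagen hydroxylases P4ha2 (1.52, SE 0.27, adjusted p = 0.0223) and Plod1 (1.17, SE 0.253, adjusted p = 0.0358) were higher, as were the integrin beta chains Itgb8 (2.28, SE 0.307, adjusted p = 0.0135) and Itgb4 (1.77, SE 0.393, adjusted p = 0.0382) and the integrin adaptor Fermt3 (2.75, SE 0.425, adjusted p = 0.0185). Aspn, again near the floor with 0.237, 0.244 and 0.211 CPM, was lower (-3.38, SE 0.474, adjusted p = 0.0155). At 45 min of tunicamycin 6 were higher and 5 lower, against 4.01% and 2.17% of all genes, among them Tgfb1i1, a focal adhesion adaptor (0.99, SE 0.129, adjusted p = 0.00869), and Npnt (-0.92, SE 0.132, adjusted p = 0.0119). EdgeR called 0 of the 136 in either direction in the early HS group (45 min) and in the group given tunicamycin for 135 min. At an unadjusted p-value under 0.05, 28 were above and 8 below the control in the former, against 12.3% and 7.16% of all genes, and 20 above and 14 below in the latter, against 10.1% and 8.49%. The DESeq2 Wald test called 5 higher and 3 lower in the former, against 3.18% and 0.536% of the genes it tested, and 3 higher and 6 lower in the latter, against 2.71% and 2.73%.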

How the data were processed

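Poly(A) RNA of 18 samples (6 groups of 3) was sequenced by the authors on an Illumina HiSeq instrument and read against mm9 and RefSeq genes with the DNAnexus platform, while the aligner, the counter and their versions are not given in the sources used here. The authors deposited an estimated count per gene, not normalized, of which 17.7% to 23.2% of the values under 1000 in a sample were not whole. The authors also deposited an RPKM value per gene. They made a score from the RPKM of each sample (the authors' Z-score), and the signal deposited is the RPKM divided by its root mean square. The score and the signal were not used, and RPKM values were used for levels between genes and for markers, with no test.

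Groups came from the sample labels, and values were joined by gene name. Counts were rounded and each pair of groups was fitted with edgeR 4.0.16 (R 4.3.3) with TMM and the quasi-likelihood test over 12731 genes, those that had 1 read or more in every sample, with Benjamini-Hochberg adjustment and a threshold of 0.05. Fold changes are on the scale of that pair of groups, and CPM values by sample use TMM over all 18 samples. Alternatives were no filter, edgeR's filterByExpr, DESeq2 1.42.0 size factors or Wald test, total counts, a shared fit of 6 groups, the replicate number as a block, an offset for transcript GC content (lowess span 0.3, 97.7% of genes tested with a value) alone or with the block, a minimum of 1 for the absolute log2 fold change, and leaving out each sample. On simulated counts of 12731 genes the test recovered 6% of 100 genes changed by a log2 of 1 and 71% of 100 changed by 2 for 135 min of HS against the control, and 73% and 96% for 405 min of tunicamycin against the control. Of the genes called there, 3.75% and 7.14% were false calls. The simulation drew each gene separately, so it did not hold the axis of spread that genes share in these libraries.

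The sample labels give replicate numbers but do not say that same-numbered samples were paired. Deviations of same-numbered samples correlated positively for every number in 1 comparison, 135 min of tunicamycin against the control (0.295, 0.251 and 0.207). In both of these groups replicate 1 had the highest score on the axis given above (50.1 and 21.1), so the correlations do not establish pairing. No replicates were alike within sampling noise (chi-square per degree of freedom 16.1 to 892). The members and the lists of related genes were chosen with earlier results of these data known. Any member could be named, members past the threshold were given with their values, and of each further list up to 2 genes per comparison, those with the largest change past the threshold and no overlap of groups. The values of 1 gene of these lists are not reported here.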

Additional observations from a re-analysis of the deposited data

Results flagged for a closer look

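Members whose effects differed between times or between stresses are listed from edgeR's quasi-likelihood test of the groups over all genes. These are the direct tests already given above, so the values repeat them and are no further check. Between 405 and 135 min of tunicamycin, 21 members passed, with 22.4% of all genes called lower and 21.4% higher. The adhesive glycoproteins Thbs1, Thbs2, Tnc and Sparc had log2 fold changes of -3.88, -1.26, -1.23 and -0.51. The elastic fibre genes Fbn1 and Fbln2 had -0.52 and -0.81 and Eln 2.26, and the basement membrane genes Lamc1, Nid1 and Nid2 had -0.49, -1.22 and -1.03. The proteoglycan Lum had -2.79 and the lysyl oxidase Loxl3 -1.67. The metalloproteinases Mmp2 and Mmp14 had -1.08 and -0.72, the inhibitors Timp2 and Timp3 -0.86 and -1.11, and the chaperone Serpinh1 1.18. The integrin chains Itga3, Itga5, Itga6 and Itgb3 had -1.75, -1.66, -1.32 and -3.28.

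Between HS and tunicamycin at 135 min, Serpinh1 had a log2 fold change of 2.0 and Thbs1 of -1.95.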

How the results depend on the processing

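Each log2 fold change of a member called in a comparison (55 in all) had the same sign under every alternative, 880 values in all. These include the minimum of 1 for the absolute log2 fold change, which leaves the fold change as it was. The other alternatives reuse the same samples for genes already called, so the sign could hardly change. Of 180 counts of members under alternatives that kept all samples, 142 were within 1.5 times the reported count, and those that were not are given here as higher and lower members where both changed. At 45 min of HS the shared fit called 2 higher, and 925 of all genes (reported 0). At 135 min of HS the reported 2 and 2 became 4 higher with the DESeq2 Wald test, 6 higher in the shared fit, 5 lower with the GC offset and 1 higher with the GC offset and the replicate block. The same fits called 1232, 1829, 1203 and 574 of all genes in those directions, with 605 higher and 336 lower reported. At 45 min of tunicamycin the reported 1 and 1 became 2 higher with filterByExpr, 3 higher with total counts, 3 and 7 with the DESeq2 Wald test, 3 and 7 with the GC offset, and 0 lower with a log2 fold change of at least 1. For all genes the reported 510 and 276 became 515, 878, 972 and 871, 1032 and 921, and 69 in that order. At 135 min of tunicamycin the DESeq2 Wald test called 1 and 1 (318 and 321 of all genes), and the GC offset 1 lower (117 of all genes). The reported fit called 16 and 1 of all genes. At 405 min of tunicamycin 1 was higher with total counts (2411 of all genes). A log2 fold change of at least 1 left 1 higher and 13 lower (1149 and 1399 of all genes, from 2965 and 2995). Between the HS times the DESeq2 Wald test called 1 lower, the shared fit 1 and 2, and the GC offset 1 lower. These fits called 209 lower, 459 and 446, and 40 lower of all genes. For HS against tunicamycin at 45 min, 5 were higher with the DESeq2 Wald test, 5 in the shared fit and 4 with the GC offset, and at 135 min 3 higher with the DESeq2 Wald test, 4 in the shared fit, and 5 and 2 with the GC offset. Of all genes, 748, 719 and 253 were higher in these fits at 45 min, with 8 reported. The counts at 135 min were 715, 998, and 819 and 646, with 166 and 104 reported. The cause of these changes was not tested.

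With the replicate number as a block, 0 members were called at 135 min of HS (reported 4), 0 at 45 min of tunicamycin (2), 0 for HS against tunicamycin at 135 min (2), 24 at 405 min of tunicamycin (26, with 1 higher) and 18 for 405 against 135 min of tunicamycin (21), while over all genes the counts went from 941 to 0, 786 to 21, 270 to 0, 5960 to 5270 and 5566 to 3750. With the GC offset and the block, 0 and 0 members, and 0 and 0 of all genes, were called for HS against tunicamycin at 135 min. For 135 min of tunicamycin, where deviations of same-numbered samples correlated, the calls over all genes went from 17 to 0 with the block and members stayed at 0. Whether same-numbered samples belong together in any comparison is not given in the sources used here.

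Leaving out 1 sample gave 0 to 7 members higher and 0 to 9 lower at 45 min of HS, 0 to 4 and 0 to 5 at 135 min of HS, 0 to 4 and 0 to 6 at 45 min of tunicamycin, 1 to 4 and 19 to 26 at 405 min of tunicamycin, and 2 and 15 to 25 for 405 against 135 min of tunicamycin. Counts over all genes swung too, from 0 to 2737 and 0 to 3049, 10 to 1535 and 0 to 932, 55 to 1391 and 3 to 1108, 2014 to 4017 and 2053 to 3880, and 1692 to 4094 and 1855 to 4032 in that order. For HS against tunicamycin, leaving out 1 sample gave 0 to 10 and 0 to 9 members at 45 min (0 to 3416 and 0 to 3671 of all genes). At 135 min it gave 0 to 1 and 0 to 1 (0 to 273 and 0 to 91 of all genes). Total counts in place of TMM moved the median log2 fold change of all genes by -0.16 and -0.17 at 45 and 135 min of HS, and by -0.28 and -0.15 for HS against tunicamycin at 45 and 135 min. They also changed the split of higher and lower genes called from 510 and 276 to 878 and 180 at 45 min of tunicamycin, from 605 and 336 to 498 and 426 at 135 min of HS, and from 166 and 104 to 209 and 275 for HS against tunicamycin at 135 min. Depth limits Lum, Eln, Mmp3 and Fbln1, which had under 100 reads in every sample.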
